A study of Bos taurus with 6 samples.

Results

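The isolated H3K4me3 regions of bovine blastocysts are autosomal stretches with a peak in all 3 replicates whose nearest other such stretch lies 250 kb or more away on each side, edge to edge. They were defined by the positions of the peak calls themselves. Peaks of the 3 lists that overlapped or touched were joined into 24746 regions, of which 16851 had a peak in all 3 replicates and are called shared regions here. Of these, 16231 lay on the 29 autosomes, and 16173 remained eligible once the first and the last of each autosome had been left out. The rule found 751 isolated regions, which were 4.64% of the eligible regions and lay on each of the 29 autosomes.

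The samples were in vitro produced Bos taurus blastocysts on day 8 after IVF (192 h), cultured under 5% oxygen in semi-defined medium with bovine serum albumin, with approximately 11 embryos pooled per replicate. Each of the 3 replicates had a library from 3 µg of anti-H3K4me3 antibody and an input library from the same chromatin, without antibody, and the authors called peaks in the former against the latter. The lists held 22404, 19076 and 22060 peaks in replicates 1, 2 and 3, of which 759, 782 and 793 lay in the isolated regions. The pools mixed early to hatched blastocysts of unknown sex, and inner cell mass and trophectoderm were not separated, so a region called in a pool need not be marked in each cell type. The replicates came from a pair of IVF procedures, and which procedure gave which replicate is not given in the sources used here.

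H3K4me3 is deposited at the promoters of active genes and at many CpG-rich promoters that are poised or weakly used, by methyltransferase complexes of the SET1 and MLL families that are drawn to unmethylated CpG islands. Most promoters of mammalian genomes lie in gene-rich blocks, and between these blocks stretch gene-poor deserts in which genes are few and often long. A mark that stands alone in such a stretch can lie at the promoter of a gene with few neighbours, at a promoter of a noncoding RNA or at a repeat element. Genes at the positions below were not assigned and no sequence was read, since gene models and sequence of the files' build, UMD 3.1.1 (bosTau8), were not used here. All coordinates are on that build.

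The distances that chose the members are given as a description. The smaller of the 2 gaps around an isolated region had a median of 395 kb, with quartiles of 302 and 599 kb, against a median of 19.7 kb over all eligible regions. The larger gap had a median of 833 kb, and it was 1 Mb or more at 298 of the 751 regions. The gaps on the 2 sides were unequal, with a median ratio of larger to smaller of 1.67. At 265 regions both gaps reached 500 kb, at 83 both reached 1 Mb and at 18 both reached 2 Mb. Between the first and the last shared region of the autosomes, gaps of 250 kb or more numbered 2291 and made up 67.5% of the length. The isolated regions themselves took up 0.0835% of that length, and all shared regions together 1.95%. Of the 2291 long gaps, 249 had an isolated region at each end, 1004 at 1 end and 1038 at neither, where both ends belonged to closer groups of regions or to a chromosome's first or last region.

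The region with the largest smaller gap was chr12:40891254-40894028, 3968 kb from its left and 5960 kb from its right neighbour. It was covered over 2771, 1951 and 2632 bp in replicates 1, 2 and 3, near the median width of the isolated regions, and was called as 1 peak in each list. Next came chr18:29861782-29863593, with gaps of 3275 and 3088 kb, which was weak, at scores of 62.2, 53.2 and 212 in replicates 1, 2 and 3. The score is the peak caller's own number, on a scale that the sources do not state, and the lowest score in any list was 50. On chr12:5198559-5204200, between gaps of 3063 and 3942 kb, the replicates differed most within this set, with 5417, 1449 and 4498 bp covered by replicates 1, 2 and 3. That region was called as 3 peaks in replicates 1 and 3 and as 1 peak in replicate 2. The remaining members of this set, chr15:71432581-71434276 and chr10:98235066-98236701, had smaller gaps of 2865 and 2550 kb. Their mean covered widths were 1458 ± 250 bp and 1539 ± 67.9 bp (SD, n = 3 replicates). The most remote regions were thus neither uniformly weak nor uniformly wide, and 4 of these 5 had no other region of any kind within 250 kb.

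**Figure D1:**
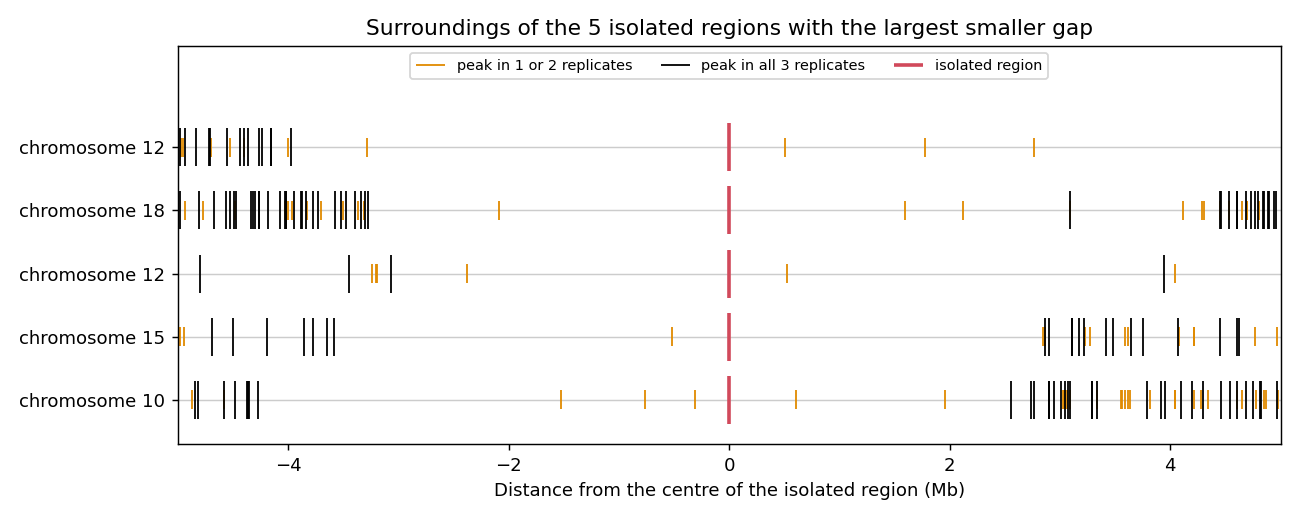
Surroundings of the 5 isolated regions with the largest smaller gap, each at position 0 of its row, with distance from its centre in Mb on the x axis. Black ticks are shared regions and orange ticks those called in 1 or 2 replicates. Beside the region on chromosome 12 in the top row the next black ticks lie 3968 kb to the left and, beyond the drawn range, 5960 kb to the right.

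Isolated regions were ordinary in width and moderate in score. The bp covered by peaks had medians of 2386, 1950 and 2109 in replicates 1, 2 and 3, which average 2148 ± 221 bp (SD, n = 3). The lowest value in each of these lists, not always at the same region, was 261, 322 and 240 bp and the highest 13938, 12251 and 13844 bp. Replicate 1 covered most bp at 500 of the 751 regions (66.6%), replicate 3 at 143 (19.0%) and replicate 2 at 104 (13.8%). The order was the same at the other eligible regions, with 71.0%, 16.1% and 12.8%. Each region was given the percentile of its highest score within all peaks of the same list, since scores move with library depth and are not comparable between lists. The median percentiles were 54.2, 46.1 and 54.5 for replicates 1, 2 and 3, averaging 51.6 ± 4.76 (SD, n = 3). Replicate 2, the list with the fewest peaks, gave the lowest of the 3 percentiles at 539 of the 751 regions (71.8%) and at 65.5% of the other eligible regions. Width and score went together across the isolated regions, with Spearman's rho of 0.862, 0.866 and 0.881 in replicates 1, 2 and 3. These are correlations across 751 regions of the same library, a description without a p-value, and a taller peak is also called over more bp.

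**Figure D2:**
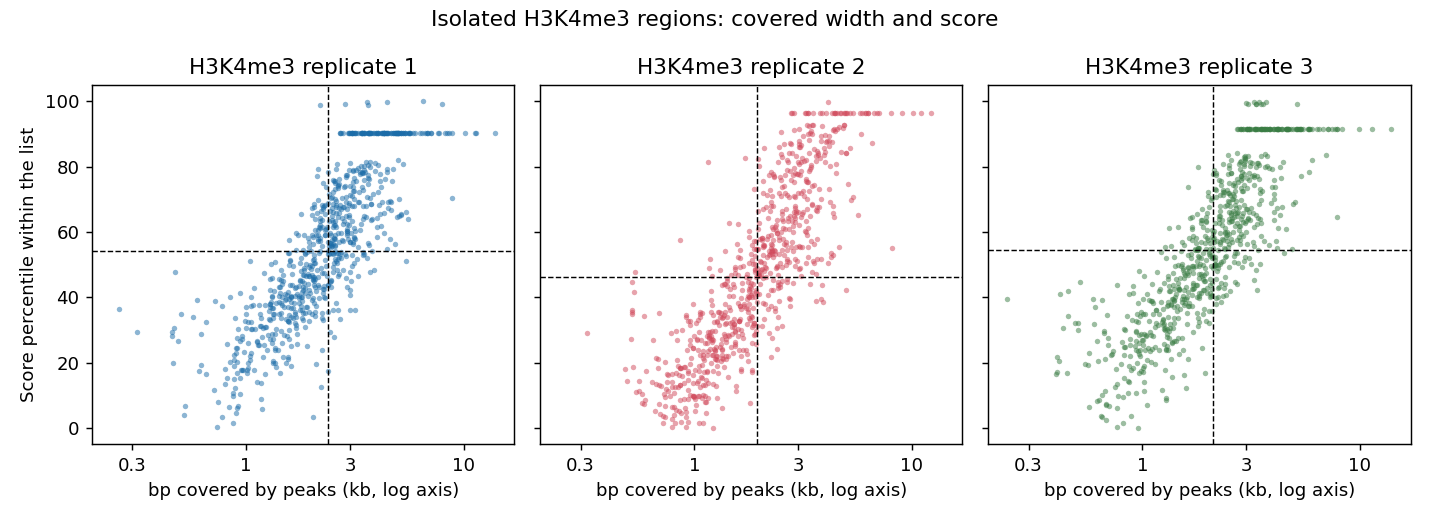
Each point is 1 of the 751 isolated regions, with the bp covered by peaks (kb, log axis) on the x axis and the score percentile within the list on the y axis, for replicates 1, 2 and 3. Dashed lines are the medians, 2386, 1950 and 2109 bp and percentiles 54.2, 46.1 and 54.5. Rows of points at one height near the top are regions that share the score 3100.

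The other 15422 eligible regions were covered over a median of 2525, 2137 and 2226 bp in replicates 1, 2 and 3. The medians of the isolated regions were thus lower in each list, by a mean difference of -148 ± 35.8 bp (SD, n = 3). It was taken within each list, at -139, -187 and -117 bp in replicates 1, 2 and 3. The median width itself varied more between replicates, with an SD of 221 bp, which is a spread between lists and not of the difference. The difference changed sign under some settings. It was 0.833 ± 30.4 bp (SD, n = 3), no larger than the spread between replicates, when a distance of 100 kb was enough, and the isolated regions were wider by 175 ± 27.8 bp when only peaks that reached the median score of their list were used. In score the isolated regions stood lower in each list, with a mean difference in median percentile of -9.09 ± 1.196 (SD, n = 3) from the other eligible regions, whose medians were 63.1, 56.5 and 62.5. That difference kept its sign under each alternative, and was smallest, -2.15, with the peaks that reached the median score. No test is given for either difference, since width and score come from the same peak calls that chose the regions.

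Width and score did not fall evenly with distance. Over the eligible regions grouped by their smaller gap, both were highest at 30 to 100 kb in each of the 3 lists and lower on either side. At 30 to 100 kb (4072 regions) the median covered width was 2488 ± 215 bp and the median percentile 66.1 ± 3.14 (SD, n = 3). Within 3 kb of a neighbour (2937 regions) these were 1977 ± 210 bp and 53.5 ± 4.34. At 100 to 250 kb (1649 regions), just short of the isolated class, they were 2351 ± 174 bp and 60.1 ± 3.65. Among the isolated regions the median percentile was 53.5 ± 4.59 at 250 to 500 kb (486 regions), 48.4 ± 4.64 at 500 to 1000 kb (182 regions) and 46.7 ± 5.73 at 1 Mb or more (83 regions). Neighbouring values among the last 3 differ by about their SD or less, although the percentile fell from each of these classes to the next in every replicate. Within the 751 members the rank correlation of smaller gap and percentile was weak, at -0.0773, -0.0727 and -0.0730 in replicates 1, 2 and 3. Isolated regions and regions within 3 kb of a neighbour thus had close percentiles, with a mean difference of -1.86 ± 0.620, while the isolated ones were wider by 171 ± 42.5 bp (SD, n = 3).

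**Figure D3:**
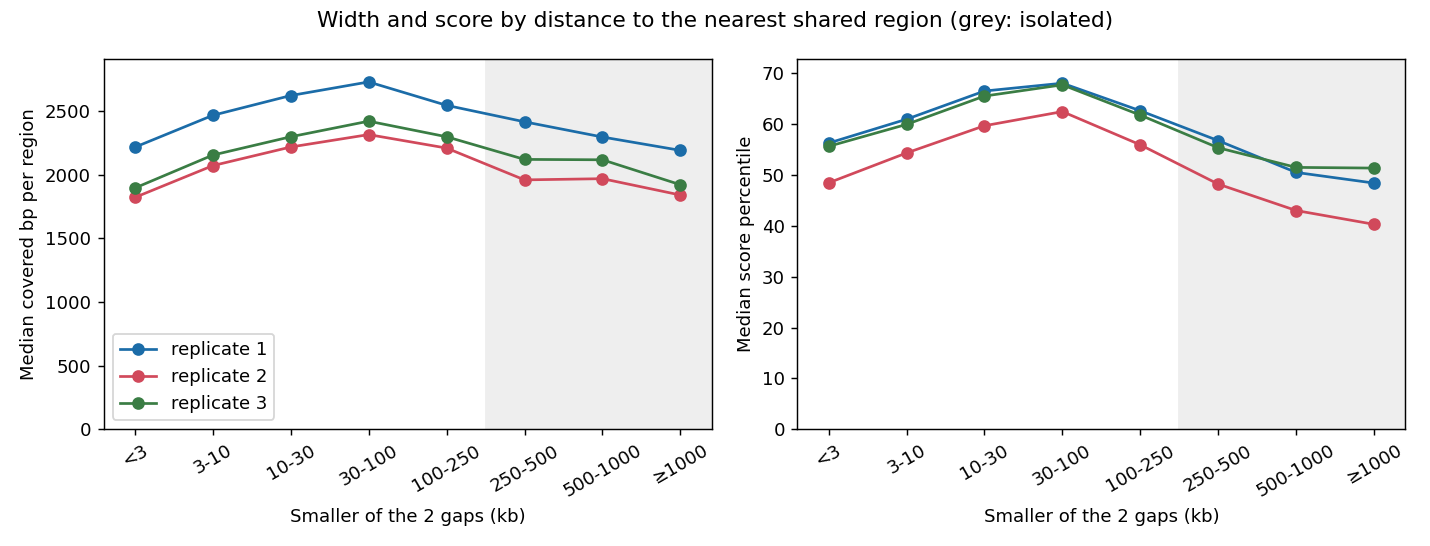
Median covered bp (left) and median score percentile (right) of eligible regions by the smaller of the 2 gaps in kb, with 1 line per replicate and the isolated classes on grey. Each line peaks at 30 to 100 kb, where the mean of the 3 replicates is 2488 bp and percentile 66.1, and ends at 1984 bp and percentile 46.7 at 1 Mb or more.

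At the strong end, 38 isolated regions (5.06%, 95% Wilson interval 3.71 to 6.87) had a score of 3100 or more in all 3 lists, a value shared by many of the strongest peaks. Among the other eligible regions this share was 7.80% (7.39 to 8.23). When replicate 2 was left out and both other lists had to reach 3100, the share of isolated regions was 10.1%. Per list, the score reached 3100 at 125, 39 and 111 isolated regions in replicates 1, 2 and 3 (16.6%, 5.19% and 14.8%). The shares of the other eligible regions were higher, at 24.98%, 7.86% and 21.4%. In none of the lists was it reached at 616 isolated regions (82.0%), against 73.4% of the other eligible regions. Regions within 3 kb of a neighbour were close to the isolated ones, with 4.49% in all 3 lists and 82.3% in none. A low share of top scores was thus not particular to isolated regions. At the weak end, 145 isolated regions (19.3%, 16.6 to 22.3) had a score under 100 in at least 1 list, against 13.2% (12.6 to 13.7) of the other eligible regions. Replicate 2 carried most of these, since 79 of the 145 were under 100 in replicate 2 alone and 15 were under 100 in all 3 lists. The others were similar in this, with 1086 of 2030 under 100 in replicate 2 alone and 203 in all 3 lists. The intervals cover counting error over regions only, and the reads behind a peak are not in the lists.

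Broad regions were few among the isolated ones, at a share near that of the other eligible regions. Peaks covered 5 kb or more in each of the 3 replicates at 25 regions (3.33%, 95% Wilson interval 2.26 to 4.87), against 4.10% (3.80 to 4.43) of the other eligible regions. Broad H3K4me3 domains are known from many cell types as a feature of genes that set cell identity. The widest isolated region was chr12:48100494-48114563, covered over 13938, 12251 and 13844 bp in replicates 1, 2 and 3, as 1 peak in each. It stood 261 kb from its left and 1229 kb from its right neighbour. The next widest was chr5:22081906-22093790, with 11308, 10993 and 11313 bp, gaps of 651 and 836 kb and 2 peaks in each list. A mean of 10037 ± 145 bp (SD, n = 3) was covered at chr1:80177485-80187788, with 1 peak in replicates 1 and 3 and 2 in replicate 2. The replicates differed most at chr23:41386123-41397472, where they covered 11350, 9041 and 7717 bp. The fifth was chr10:16944779-16953881, at 8866, 7991 and 8275 bp. All 5 had the score 3100 in all 3 lists.

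Of the 25 broad isolated regions, 15 had a score of 3100 or more in all 3 lists and 10 did not. Among the other eligible regions 410 of the 633 broad ones had such scores, a similar proportion. The 25 lay on 15 autosomes, with a median smaller gap of 358 kb and a maximum of 1329 kb, and for 2 of them both gaps reached 1 Mb. Only 5 of the 25 had flanks of 250 kb free of any other region, against 399 (53.1%) of all isolated regions. The region on chromosome 23 had 9 regions found in 1 or 2 replicates in its flanks and the widest region, on chromosome 12, had 7.

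The highest mean percentiles picked partly other regions. At chr5:34695847-34703930 the scores were 3147, 3100 and 3100 over 7940, 6298 and 7114 bp in replicates 1, 2 and 3. At chr15:26448442-26453066 they were 3100, 3180 and 3100 over 4625, 4102 and 3979 bp. At chr21:46933713-46936952 they were 3100, 2761 and 3174 over a mean of only 2976 ± 96.6 bp (SD, n = 3), close to the upper quartile of the isolated regions. The next place is a tie at a mean percentile of 92.7 among the regions with exactly 3100 in all 3 lists, which include the 5 widest, and the rule broke it by width in favour of the regions on chromosomes 12 and 5. The order among these regions rests on a few scores above 3100, and the list gives no order among those at 3100. Many peaks of each list share the score 3100, and the highest score is the same value in all 3 lists. Whether a score above 3100 marks a stronger peak than 3100 itself was not tested, since the scale is not stated. The lead of the first 3 regions over the tied ones is therefore a rank of scores only.

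Narrow members formed the other end. At 42 isolated regions (5.59%, 95% Wilson interval 4.16 to 7.47) the peaks covered under 1 kb in each replicate, against 2.25% (2.03 to 2.50) of the other eligible regions. They lay on 20 autosomes, and 32 of the 42 also had a score under 100 in at least 1 list. Such a score was also common at narrow regions among the others, at 220 of 347. Replicate 2 covered most bp at 18 of these 42 regions, against 104 of all 751, and replicate 1 also at 18, against 500 of all 751. The narrowest, chr9:94233766-94234280, was covered over 261, 515 and 240 bp in replicates 1, 2 and 3, with scores of 279, 239 and 318. Of the 5 narrowest, 4 were widest in replicate 2, where they covered 515 bp, 516 bp (chr11:53233401-53233916), 519 bp (chr1:79396433-79396951) and 534 bp (chr8:13570664-13571197). The fifth, chr9:913189-913833, was narrowest in replicate 2, at 322 bp, and had the widest gap of any isolated region, 6591 kb on its right side. At the regions on chromosomes 11, 1 and 8 the score percentile was also highest in replicate 2, at 44.6, 36.1 and 47.6, above 29.4, 19.8 and 30.5 in replicate 1 and 21.6, 20.5 and 16.4 in replicate 3. Replicate 2 gave the highest percentile at 98 of the 751 isolated regions, and 37 of these 98 had the score 3100 or more in all 3 lists, where an equal score of 3100 stands at a higher percentile in replicate 2.

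The lowest mean percentile belonged to chr11:16750275-16751310, with scores of 57.8, 62.6 and 55.2 and covered widths of 901, 1016 and 650 bp in replicates 1, 2 and 3. It stood between gaps of 575 and 1999 kb. The weak region chr2:10724861-10725894 was nevertheless close in width between replicates, at 837, 861 and 813 bp, with scores of 61.2, 77.6 and 52.0. A score of 50, the lowest of the list of replicate 3, was given to chr14:82795942-82796926, which was also the member nearest to the distance limit. The others of this set were chr27:34500705-34501678, with scores of 50.3, 102 and 62.3, and chr8:8705191-8706400, with 67.9, 68.9 and 69.9. Of these 5 regions, 4 had empty flanks. Among all 15 isolated regions with a score under 100 in each list, flanks were empty at 12.

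The replicates placed the edges of isolated regions close to each other. The range over the 3 lists of the first peak start had a median of 289 bp, and that of the last peak end a median of 273 bp, against 294 and 291 bp at the other eligible regions. The range of the covered bp over the replicates was 23.3% of its mean at the median isolated region and 35.0% at the upper quartile, against 23.2% and 36.1% at the others. Spearman's rho of the covered bp over the 751 regions was 0.917 between replicates 1 and 2, 0.941 between 1 and 3 and 0.922 between 2 and 3. In each list most isolated regions were called as 1 peak, and 691 (92.0%, 95% Wilson interval 89.9 to 93.7) were so in all 3 lists, against 91.0% (90.6 to 91.5) of the others. No isolated region held more than 3 peaks in any list.

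A few members differed strongly between the lists. At chr14:56650759-56653299 peaks covered 2541, 1082 and 680 bp in the lists of replicates 1, 2 and 3. At chr29:2762444-2765924 replicate 2 stood apart, with 478 bp against 3042 and 3481 bp in replicates 1 and 3. At chr3:55673771-55675397 replicate 1 covered 1572 bp and replicates 2 and 3 covered 716 and 569 bp. The range exceeded the mean width at all of these regions, and the replicate that stood apart was not the same at each.

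The rule empties the flanks of shared regions only, so regions found in 1 or 2 replicates could still lie there. Of the 751 isolated regions, 399 (53.1%) had none within 250 kb on either side, 211 had 1 and 141 had more, up to 9. In all, 575 such regions lay in 360.7 Mb of flank, or 1.59 per Mb, against 3.36 per Mb of the autosomes outside flanks and shared regions. The rule chose flanks without other shared regions, while the rest of the autosomes surrounds the other shared regions. These densities are therefore not independent of the rule. Of the 575, 189 were found in 2 replicates and 386 in 1, of which 205 were in replicate 1, 72 in replicate 2 and 109 in replicate 3. The share found in 2 replicates was 32.9%, close to the 36.0% among all 7630 autosomal regions of 1 or 2 replicates, of which 2555, 695 and 1633 were in replicate 1, 2 or 3 alone. The median highest score of the 575 was 75.9, near the 79.1 of such regions outside the flanks. The highest reached 553. The number of such regions depends on how many lists enter, and was 344 without replicate 1 and 299 without replicate 2. The density of the 575 was highest next to the isolated regions, at 6.92 per Mb within 10 kb of an edge (104 regions) and 1.63 per Mb from 10 to 50 kb. From 100 to 250 kb away there were 1.30 per Mb, although this class held the most regions (292). Densities at these distances from other shared regions were not computed. Whether those nearest to an edge are parts of the same mark was not tested.

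**Figure D4:**
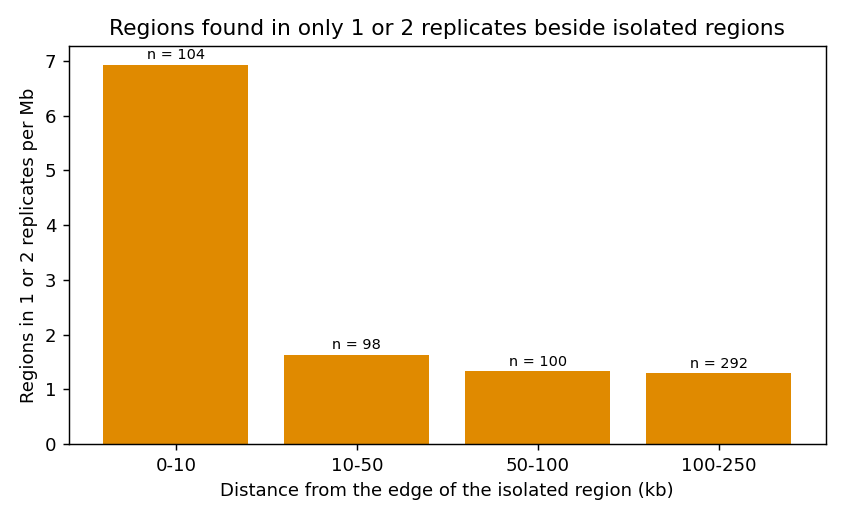
Regions with a peak in only 1 or 2 replicates per Mb of flank, by distance in kb from the edge of the isolated regions, with the number of regions above each bar, where a region in the flanks of 2 isolated regions counts for both. The bar within 10 kb stands at 6.92 per Mb and the others between 1.30 and 1.63 per Mb.

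Isolated regions with empty flanks had lower scores than the rest. Their median percentiles were 51.04, 41.5 and 50.3 in replicates 1, 2 and 3 (399 regions), against 57.9, 50.9 and 58.8 at the 352 regions with at least 1 further region in the flanks. Their median covered widths were 2240, 1865 and 2030 bp against 2510, 2115 and 2195 bp. The order was the same in each list, and no test is given for the reason stated above.

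Many isolated regions followed each other along a chromosome. With no other shared region between them, 422 of the 751 (56.2%) stood in runs of 2 or more and 329 stood alone. The rule favours such runs, since the shared region next to a member already has a gap of 250 kb or more on that side. The share to be expected from the gaps alone was not computed. There were 119 runs of 2 regions, 39 of 3, 12 of 4, 2 of 5 and 1 of 9. The run of 9 lay on chromosome 6 from 30359718 to 36286359 and spanned 5927 kb. Its members ranged from weak to strong. The strongest, chr6:33806374-33811359, had the score 3100 in all 3 lists over 4986, 4451 and 4615 bp and stood 1666 kb from its left and 1384 kb from its right neighbour. Its right neighbour, chr6:35195746-35197419, was weak, with scores of 108, 77.2 and 150 over 1531, 1260 and 1404 bp. The run opened with chr6:30359718-30363393, at scores of 2568, 1101 and 2001, and ended with chr6:36284125-36286359, at 132, 156 and 157. The member chr6:35935525-35939564 had scores of 3100, 1769 and 2656. Between the opening and the strongest region lay chr6:31244447-31246841, chr6:31564859-31568429, chr6:31820008-31823616 and chr6:32136866-32140614, with mean covered widths of 2145, 3190, 2756 and 3398 bp. Most members of the run, 7 of the 9, had empty flanks. The runs of 5 spanned chr8:31106987-37293850 and chr4:35562746-41267497.

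Isolated regions were spread over the autosomes roughly by length. Their number went from 50 on chromosome 1 to 7 on chromosome 25, and its Spearman's rho with chromosome length was 0.914 over the 29 autosomes, with the end of the last peak standing in for the length. Over all autosomes there were 2.99 isolated regions per 10 Mb. Chromosome 3 had the highest density, 3.87 per 10 Mb, and chromosome 19 the lowest, 1.25. As a share of the eligible regions they ranged from 0.829% on chromosome 19 (8 of 965, 95% Wilson interval 0.421 to 1.63) to 10.3% on chromosome 20 (26 of 252, 7.14 to 14.7). On chromosomes 18 and 25, which also carry dense peaks, the shares were 0.998% and 1.16%. After chromosome 20 came chromosomes 9, 1 and 6, with 9.27%, 8.29% and 8.19%, and the intervals of these 4 chromosomes overlap. A share of this kind follows from the spacing of the regions, which the rule used, and is a description.

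**Figure D5:**
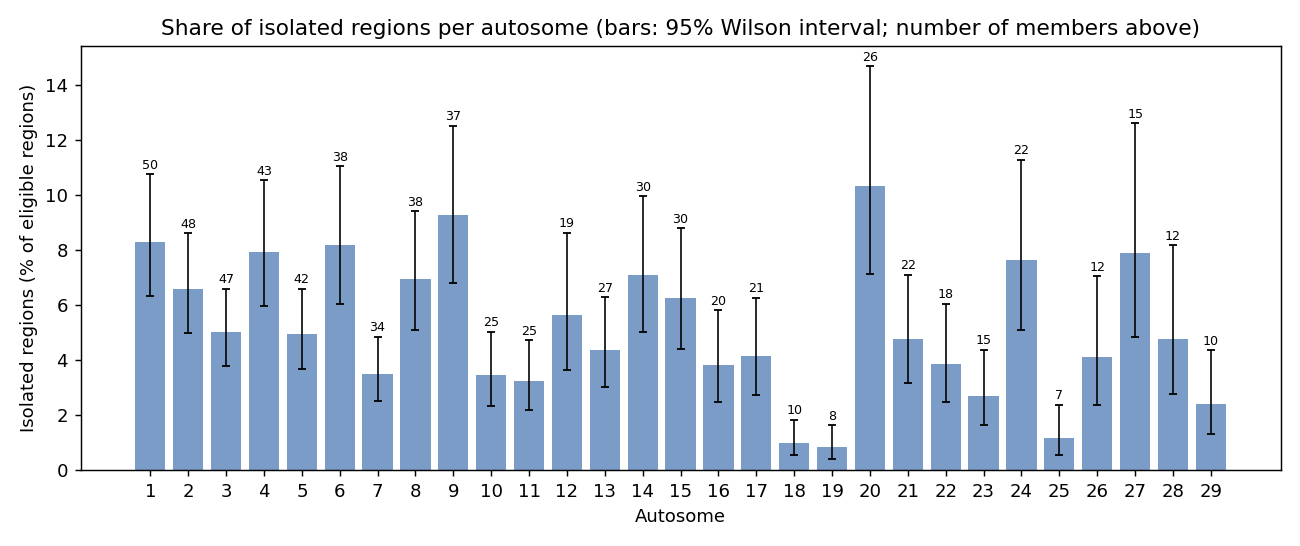
Isolated regions as a percentage of the eligible regions of each autosome, with 95% Wilson intervals and the number of isolated regions above each bar. The share is 10.3% on chromosome 20 and 0.829% on chromosome 19.

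The isolated regions of the peak-dense chromosomes differed in strength, though on few members. On chromosome 18 the 10 members had median percentiles of 66.3, 52.9 and 67.0 and median covered widths of 3190, 3235 and 3002 bp in replicates 1, 2 and 3. On chromosome 19 the 8 members stood at 40.8, 29.4 and 34.1 and covered 1583, 1156 and 1182 bp. The 7 members on chromosome 25 stood at 36.6, 30.7 and 37.1 and covered 1324, 1216 and 1364 bp. For comparison, all 751 members stood at 54.2, 46.1 and 54.5, and the 50 members of chromosome 1 stood higher, at 61.7, 56.2 and 63.8. The 18 members of chromosome 22 were also low, at 41.3, 29.3 and 41.5. That chromosome held 7.57 eligible regions per Mb, against 15.1 on chromosome 19 and 14.1 on chromosome 25.

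The limit of 250 kb cuts through a continuous range of distances. Just inside it stood chr14:82795942-82796926, with a smaller gap of 250.02 kb, chr1:77342567-77344745 with 251.04 kb and chr8:16998041-16999603 with 251.07 kb. Their mean percentiles were 7.07, 56.3 and 44.5. Just outside it stood chr3:77092145-77094577 with 248.57 kb, chr6:63126428-63129783 with 248.26 kb and chr7:99033493-99036277 with 247.85 kb. Their mean percentiles were 67.1, 86.9 and 83.3. These are single regions and do not measure a step at the limit. Over whole classes the median percentile was 60.1 ± 3.65 at 100 to 250 kb and 53.5 ± 4.59 at 250 to 500 kb (SD, n = 3).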

How the data were processed

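The authors aligned 51-base single-end reads to UMD 3.1.1 (bosTau8) without scaffolds with Bowtie (1.2.3 in the submitters' processing notes), used Picard against mapping duplicates and MACS, version not given in the sources used here, for peaks of every H3K4me3 library relative to the input of the same replicate. The deposited lists, 1 per replicate, give the position and the score of each peak. The score's scale is not stated, but the values have the form of −log10 p-values times a factor. A deposited position is in bp, with starts counted from 0, and is printed here counted from 1.

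Peaks were joined, measured and ranked in Python 3.11.15 (pandas 2.3.3, NumPy 2.4.6, SciPy 1.17.1) and drawn with Matplotlib 3.10.9. No filter was applied, and inputs were used only by the authors' peak calling. The region finding was tested on simulated data with known answers. The isolated regions and the measures were chosen with earlier results of these data known, and no test was made, since position, width and score come from the calls that chose the regions. Means ± SD are over n = 3 replicates, which were separate pools of embryos but did not all come from separate IVF procedures. Wilson intervals are at 95%. The lists hold no reads, so the depth behind a peak is unknown, and a region missing from a list was not detected there. Named regions are the 5 with the largest smaller gap, the 5 widest, narrowest, highest and lowest in mean percentile, the 3 with the largest relative range between replicates, the 3 nearest to the limit on each side and the longest run. Alternatives covered the distance, the neighbours, joining, score filters, list size, the replicates and the measures.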

Additional observations from a re-analysis of the deposited data

How the results depend on the processing

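No paired analysis was possible because the groups that share replicate numbers are the H3K4me3 and the input libraries, and the inputs have no list of their own here. The differences between isolated and other regions were taken within each list. The differences between isolated and other regions, the number of autosomes, the edges and the runs were added to the planned results after the values had been seen. The lists give no reads, so that depth limits weak regions to detected or not detected, and a score filter or a shallower list can merge or empty a flank.

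With 100 kb on each side there were 2400 regions, of which 1846 stood in runs, with 2613 regions of 1 or 2 replicates within 250 kb. Their median percentile was 56.9, 8.29% had the score 3100 or more in all 3 lists, and 16.3% had a score under 100 in any. The differences from the other regions were then 0.833 ± 30.4 bp in width (SD, n = 3), a change of sign but within the spread between replicates, and -3.82 in percentile. With 500 kb there were 265 regions, 116 of them in runs and 142 of the partly found regions nearby, 26.0% had a score under 100, and the differences were -203.5 bp and -12.96.

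When a region of any replicate counted as a neighbour, 399 regions remained, 167 in runs, by construction with 0 partly found regions nearby. Of these, 2.26% had the score 3100 or more in all lists, and the differences were -251 bp and -12.98. Joining peaks under 1000 bp apart gave 789 regions, 83.5% of them called as 1 peak in all lists, and a width difference of -203.2 bp. Equal list sizes left 15.2% with a score under 100.

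Only peaks that reached the median score of their list gave 809 regions, of which 323 overlapped an isolated region as defined above (43.0% of the 751 and 39.9% of the 809). Their median width was 3106 bp and percentile 76.1, 98.1% were called as 1 peak, 13.2% had the score 3100 or more, 0 had a score under 100 as the filter requires, and 255 partly found regions lay nearby. The median shift of the start between a pair of replicates, averaged over the pairs, was 194.7 bp against 170.7 bp in the full lists. This is another measure than the range over all 3 replicates given above. The width difference reversed to 174.7 ± 27.8 bp and the percentile difference was -2.15.

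Leaving out 1 replicate at a time, with a peak required in both others, gave 738 to 742 regions. The width difference lay between -249.8 and -161 bp, the share called as 1 peak between 94.2% and 95.8%, the shift of the start between the remaining pair between 150 and 192 bp, and the partly found regions between 299 (without replicate 2) and 406, with 344 without replicate 1. The share with the score 3100 or more lay between 4.60% and 10.1%, the latter without replicate 2. Without replicate 2, 635 of the 751 regions (84.6%) were still isolated. In all, 82 of 124 recomputed values stayed within the spread between replicates, the interval of the share or 1.5 times the count. The cause of the other changes was not tested.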

Other observations

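The distance of 250 kb applied to chromosome X, which the autosomal definition leaves out, found 60 of 618 shared regions (9.71%), with median covered widths of 2242, 1779 and 1843 bp and median score percentiles of 48.8, 42.5 and 47.0 in replicates 1, 2 and 3. Embryos were not sexed, so X copy number in the pools is unknown.

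Of the 2747 autosomal regions found in 2 replicates, 173 (6.30%) lay 250 kb or more from any shared region. Replicate 2 was the list without a peak at 122 of these 173 and at 2046 of all 2747. Their median higher score was 109 and their median larger covered width 1073 bp. The highest score among them was 546, at chr28:4120972-4123137, which covered 2166 bp in replicate 1 and 1607 bp in replicate 3. At chr3:79137386-79140884 peaks covered 3119 and 3050 bp in replicates 1 and 3, with scores of 312 and 458 and no peak in replicate 2.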
